A study of Mus musculus with 10 samples.

Results

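The transcripts of 7 secreted host-defence proteins were followed across the distal colorectum of irradiated and unirradiated mice: S100a8, S100a9, Saa3, Hp, Lrg1, Lcn2 and Ltf. They are alarmins, which cells release as danger signals, and acute-phase proteins that can be made in inflamed tissue as well as in the liver. Members were chosen by gene symbol in the platform annotation of the array, which gave 1 probe set for each, that is 7 of 45101 probe sets and 7 of 18193 genes with a probe set of their own. The genes had been picked with their irradiation and genotype differences in these arrays already known, so those differences describe the genes and count as no test of them.

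The tissue came from C57BL/6J mice and was taken about 1 cm above the anus. The 4 groups were irradiated Pdgfc-/- mice (knockout, 3 arrays), irradiated Pdgfc+/+ mice (wild type, 3 arrays), unirradiated knockout mice (2 arrays) and unirradiated wild-type mice (2 arrays). Irradiation was a local γ exposure of 25 Gy at 2.14 Gy/min under chloral hydrate, and both irradiated and control mice were killed 8 weeks after it. The labels call the arrays biological replicates and give no age, sex or details of the Pdgfc allele. Pdgfc encodes a secreted platelet-derived growth factor that acts on fibroblasts and other mesenchymal cells. Levels are log2 MAS5 signals, in which 1 unit is a doubling, and they were compared for a probe set between arrays but not between probe sets.

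S100A8 and S100A9 pair to form calprotectin, the neutrophil protein that chelates zinc and manganese, signals through Toll-like receptor 4 and RAGE, and is measured in stool as a marker of bowel inflammation. Serum amyloid A, haptoglobin and leucine-rich alpha-2-glycoprotein are acute-phase proteins whose genes respond to interleukin 1, interleukin 6 and related cytokines through NF-kappaB, STAT3 and C/EBP factors. Lipocalin 2 and lactoferrin keep iron from bacteria, lipocalin 2 by binding their siderophores and lactoferrin by binding the metal itself. Neutrophils store calprotectin, lactoferrin, lipocalin 2 and haptoglobin, and several of the genes are also expressed by epithelia, macrophages or fat.

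The RefSeq promoter table (build GRCm38.p6, 250 bases before to 50 after each annotated start) held 6 of the 7 genes. The promoters of 4 members are shown, because S100a8 and S100a9 are neighbours on chromosome 3 that encode partners of one complex, Saa3 had the largest genotype difference after irradiation, and Lrg1 had the largest one without it. Capitals mark the letters of a C/EBP core, TTNNGNAA on either strand, and of a TATA box, TATAAA on the gene's strand.
S100a8: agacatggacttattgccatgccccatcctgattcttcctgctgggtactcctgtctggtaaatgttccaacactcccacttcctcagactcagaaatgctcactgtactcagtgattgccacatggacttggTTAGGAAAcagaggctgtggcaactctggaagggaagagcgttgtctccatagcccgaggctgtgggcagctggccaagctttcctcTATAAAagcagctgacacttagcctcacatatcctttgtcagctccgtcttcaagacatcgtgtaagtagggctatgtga
S100a9: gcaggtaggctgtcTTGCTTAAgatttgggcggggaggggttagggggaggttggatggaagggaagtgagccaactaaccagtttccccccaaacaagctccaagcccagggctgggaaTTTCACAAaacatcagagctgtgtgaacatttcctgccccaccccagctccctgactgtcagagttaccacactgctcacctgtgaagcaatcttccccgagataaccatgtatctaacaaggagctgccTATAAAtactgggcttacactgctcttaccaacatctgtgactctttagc
Saa3: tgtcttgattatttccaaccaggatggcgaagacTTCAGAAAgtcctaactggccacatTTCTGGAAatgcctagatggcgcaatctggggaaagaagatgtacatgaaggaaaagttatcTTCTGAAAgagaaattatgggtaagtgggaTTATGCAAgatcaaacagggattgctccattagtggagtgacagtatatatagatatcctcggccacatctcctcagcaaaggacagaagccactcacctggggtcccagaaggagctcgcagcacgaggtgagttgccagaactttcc
Lrg1: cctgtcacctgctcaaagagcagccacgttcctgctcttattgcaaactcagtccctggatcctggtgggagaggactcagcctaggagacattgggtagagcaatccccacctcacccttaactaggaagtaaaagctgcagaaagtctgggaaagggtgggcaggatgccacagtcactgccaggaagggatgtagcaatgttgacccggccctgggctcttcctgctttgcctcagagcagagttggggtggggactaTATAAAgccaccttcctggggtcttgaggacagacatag
They lie at chr3:90668821-90669120 (plus strand), chr3:90695672-90695971 (minus strand), chr7:46715627-46715926 (minus strand) and chr17:56121897-56122196 (minus strand), in the order shown.

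Saa3 held 4 matches to the C/EBP letters, S100a9 and Ltf held 2 each, S100a8 and Lcn2 held 1 each, and Lrg1 held none. Thus 5 of the 6 promoters had at least 1 match, against 40.68% of all 32851 promoters of the same length. The TATA letters were found in 3 of the 6, those of S100a8, S100a9 and Lrg1, against 8.32% of all promoters. In S100a8 the TATA match began at position -30, whereas it began at position 1 in S100a9 and position 12 in Lrg1, with the annotated start as position 1. A STAT core, TTCNNNGAA, and an NF-kappaB core, GGGA and CC with any 4 bases between them, both searched on both strands, were in 0 of the 6 windows and in 8.3% and 20.73% of all promoters. A match describes letters, not a bound site. No motif overlapped another in the 4 sequences shown.

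Every array had most or all of its 10 colonocyte markers above the array median, between 9 and 10 on each irradiated array and 10 on each unirradiated one. Array medians ran from 6.64 to 7.18. The targeted gene, Pdgfc, lay at 6.26 to 7.15 in irradiated knockout, 8.56 to 8.75 in irradiated wild type, 5.62 to 6.42 in unirradiated knockout and 7.01 to 7.50 in unirradiated wild type on the brighter of its 2 probe sets. Xist, the RNA of the inactive X chromosome in females, was high on 4 arrays, namely the 3 irradiated wild-type arrays and the first replicate of irradiated knockout, and low on the other 6. Within wild type the sex pattern and irradiation therefore cannot be told apart. Within knockout, replicates 2 and 3 of the irradiated group share the low pattern with both unirradiated arrays. The 3′ minus 5′ difference of the Gapdh control probe sets was -0.54 to -0.35 on irradiated arrays and -0.32 to 0.02 on unirradiated ones, and its part in the results was not tested. In whole tissue, a change in the number of cells of a type and a change in RNA per cell cannot be told apart.

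S100a8 encodes the smaller calprotectin subunit. Its log2 signal was 13.43, 11.46 and 12.75 on the irradiated knockout arrays and 12.50, 13.88 and 12.26 on the irradiated wild-type arrays. Without irradiation it was 5.49 and 2.72 in knockout and 9.46 and 7.23 in wild type. All 6 irradiated arrays lay above all 4 unirradiated ones, and both unirradiated knockout arrays lay below both wild-type arrays. The irradiated groups overlapped. The S100a8 difference between irradiated and unirradiated tissue was 8.44 ± 0.93 (SE) log2 units in knockout and 4.53 ± 0.93 (SE) in wild type. Its probe set is of a class that can match more than 1 transcript, although the annotation lists only S100a8.

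S100a9 encodes the other calprotectin subunit. It had 12.10, 9.70 and 11.01 in irradiated knockout and 12.02, 14.10 and 12.22 in irradiated wild type. Unirradiated arrays had 3.16 and 2.32 in knockout and 4.44 and 2.36 in wild type, all 4 below their array median. The unirradiated genotypes overlapped, unlike those of S100a8, and so did the irradiated ones. S100a9 differed with irradiation by 8.19 ± 0.85 (SE) in knockout and 9.38 ± 0.85 (SE) in wild type. MAS5 spreads dim signals widely, so the size of such a difference depends on how dim values are treated: with 64 added to the linear signal, S100a9 differed by 4.85 in knockout and 6.53 in wild type. S100a8 then differed by 6.11 in knockout and 4.23 in wild type.

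Saa3 is the serum amyloid A gene that mice express mainly outside the liver, in macrophages, fat and epithelia. It had 8.93, 8.79 and 8.72 in irradiated knockout, 11.80, 10.37 and 10.81 in irradiated wild type, 7.05 and 6.87 in unirradiated knockout and 8.59 and 8.39 in unirradiated wild type. It was the only member above the array median on all 10 arrays. The groups did not overlap in any of the 4 pairwise comparisons that differ by irradiation or genotype alone. Saa3 averaged 8.81 ± 0.11 (SD, n = 3) in irradiated knockout, against 8.49 ± 0.14 (SD, n = 2) in unirradiated wild type, a pair that was not tested. Saa3 differed with irradiation by 1.85 ± 0.34 (SE) in knockout and 2.50 ± 0.34 (SE) in wild type.

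Hp encodes haptoglobin, which captures free haemoglobin. Its signal was 9.67, 7.20 and 9.32 in irradiated knockout, against 2.29 and 1.94 in unirradiated knockout. In wild type it was 12.31, 10.07 and 9.51 with irradiation, against 1.62 and 3.06 without. All unirradiated values lay below the array median, and all irradiated values above it. Hp differed with irradiation by 6.62 ± 0.93 (SE) in knockout and 8.29 ± 0.93 (SE) in wild type, or by 2.89 in knockout and 4.58 in wild type with 64 added to the linear signal.

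Lrg1 encodes leucine-rich alpha-2-glycoprotein, which modulates TGF-beta signalling in endothelium. It had 9.31, 10.83 and 8.72 in irradiated knockout and 10.68, 9.79 and 10.13 in irradiated wild type. Without irradiation it had 7.29 and 3.99 in knockout and 10.83 and 10.10 in wild type. Unirradiated knockout stood apart from the other 3 groups, which overlapped. Its irradiation difference was 3.98 ± 0.86 (SE) in knockout and -0.27 ± 0.86 (SE) in wild type. Lrg1 was the only member whose irradiated and unirradiated wild-type arrays overlapped.

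Lcn2 encodes lipocalin 2. It had 10.03, 9.60 and 9.28 in irradiated knockout, 10.75, 10.37 and 9.62 in irradiated wild type, 5.45 and 4.81 in unirradiated knockout and 6.65 and 6.68 in unirradiated wild type. Its irradiated arrays spanned a narrower range than those of the calprotectin genes. Lcn2 differed with irradiation by 4.51 ± 0.35 (SE) in knockout and 3.58 ± 0.35 (SE) in wild type.

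Ltf encodes lactoferrin. Its irradiated knockout arrays had 13.46, 12.01 and 11.40, and its irradiated wild-type arrays had 9.20, 14.53 and 13.63. Unirradiated arrays had 6.39 and 3.90 in knockout and 8.68 and 7.78 in wild type. Replicate 1 of irradiated wild type lay far below the other two and just above the unirradiated arrays, which gave the group an SD of 2.85 (n = 3). Ltf differed with irradiation by 7.14 ± 1.38 (SE) in knockout and 4.22 ± 1.38 (SE) in wild type. Without that replicate the wild-type difference of Ltf was 5.85, with an adjusted p of 0.00253 (limma) in place of 0.0511. It was the only 1 of the 10 fits leaving out 1 array in which Ltf was called in wild type. Over those fits the difference ranged from 3.19 to 5.85.

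**Figure D1:**
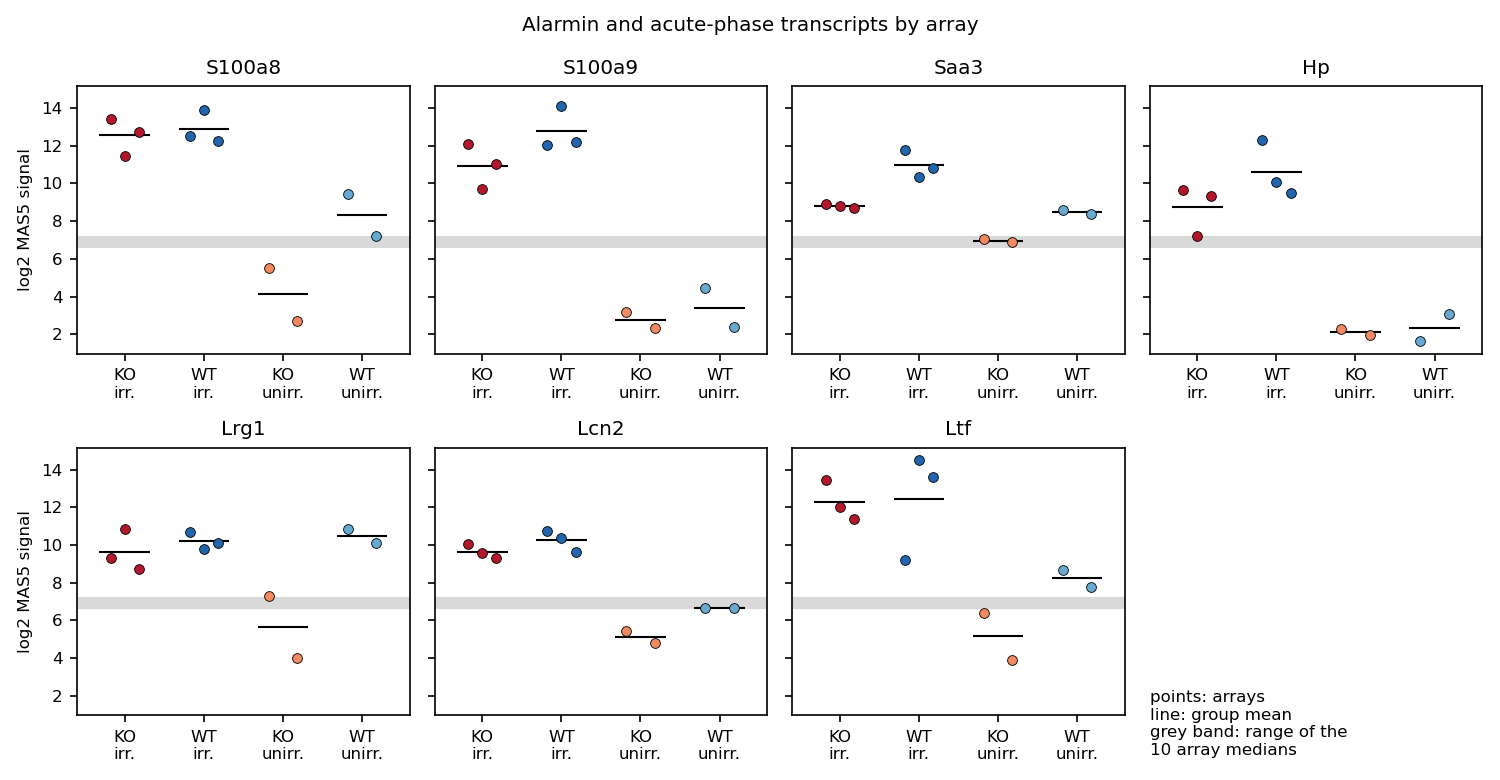
Log2 MAS5 signal (vertical axis) of the 7 genes on each of the 10 arrays, in irradiated knockout, irradiated wild type, unirradiated knockout and unirradiated wild type (horizontal axis). Points are arrays, lines are group means and the grey band spans the 10 array medians, 6.64 to 7.18. All 6 irradiated arrays lay above the band for every gene, and Saa3 of irradiated knockout lay between 8.72 and 8.93, below all 3 irradiated wild-type arrays.

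In irradiated against unirradiated knockout tissue, all 7 genes passed an adjusted p of 0.05 (limma with Benjamini-Hochberg adjustment over 12568 genes) and were higher, with a median difference of 6.62. Of all genes tested, 14.0% were called higher and 9.50% lower in that comparison, and the median difference was 0.01. Their irradiated and unirradiated knockout arrays did not overlap for 7 of 7 genes, with higher irradiated values, against 28.4% of all genes. In wild type, 5 of the 7 genes were called higher, with a median over all 7 of 4.22, against 15.8% of all genes called higher, 8.34% called lower and a median of 0.07. The 2 exceptions were Lrg1 and Ltf, which had an adjusted p of 0.854 and 0.0511 (limma). Irradiated wild-type arrays lay wholly above unirradiated ones for 6 of the 7 genes, Lrg1 being the exception, and for 30.8% of all genes. All 7 genes passed the filter on dim signals, but S100a9, Hp and Lcn2 passed only through their irradiated arrays. Since the irradiation differences were known when the genes were picked, these counts describe the choice.

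Leaving out replicate 1 of irradiated knockout compares knockout arrays of the low Xist pattern only. All 7 genes were still called higher, by 8.0 for S100a8, 7.61 for S100a9, 1.80 for Saa3, 6.14 for Hp, 4.14 for Lrg1, 4.31 for Lcn2 and 6.56 for Ltf. In wild type no such comparison exists. With Xist status as a covariate, estimated there from a single array of the other genotype, 0 of the 7 genes were called in wild type, and 6 of the 7 kept a positive difference between 2.32 and 7.64, Lrg1 being at 0.20. The same limit applies to every wild-type irradiation difference given for other genes.

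**Figure D2:**
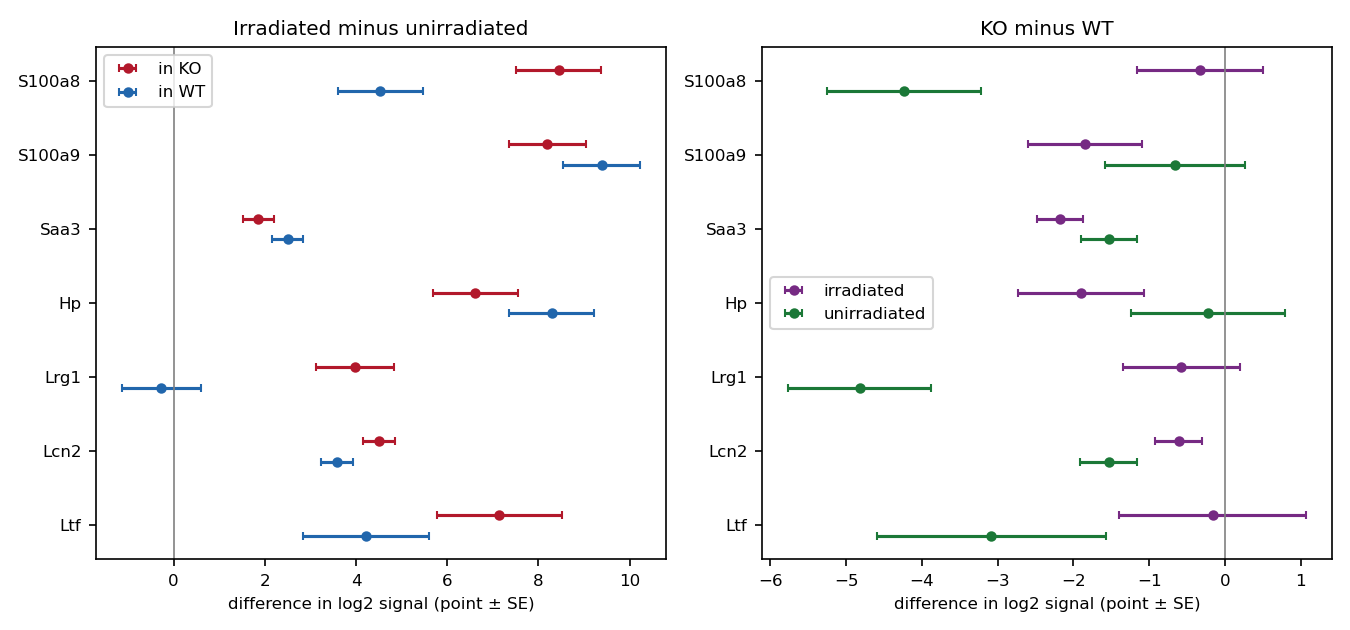
Differences in log2 signal (horizontal axes, point ± SE) of the 7 genes, irradiated minus unirradiated in knockout and in wild type (left panel) and knockout minus wild type in irradiated and in unirradiated tissue (right panel). All points of the right panel lie below 0, and Lrg1 ranges from -0.27 in wild type to 3.98 in knockout on the left.

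After irradiation, all 7 genes had lower group means in knockout than in wild type. None passed the test across all genes, and neither did any of the 12568 genes, that is 0% called. Without adjustment, 3 of the 7 genes and 500 of all genes (3.98%) were under a p of 0.05 in limma. Saa3 had the largest difference, -2.18 ± 0.30 (SE), a 4.53-fold lower signal in knockout (adjusted p = 0.216, limma). It was also the only member whose genotypes did not overlap after irradiation, a pattern found in 4.04% of genes in that direction. Without replicate 1 of irradiated wild type, which has the highest Saa3 signal, the difference was -1.77 and its adjusted p 0.0446 in limma. It was the only 1 of the 10 fits leaving out 1 array in which Saa3 was called. S100a9 differed by -1.84 ± 0.76 (SE) and Hp by -1.90 ± 0.83 (SE), with overlapping arrays. Lcn2 differed by -0.61 ± 0.31, Lrg1 by -0.58 ± 0.77, S100a8 by -0.33 ± 0.83 and Ltf by -0.16 ± 1.23 (all SE), so the last 3 were smaller than their errors. Xist was high on all 3 irradiated wild-type arrays and on 1 of the 3 irradiated knockout arrays. The sex pattern therefore partly coincided with genotype in this comparison, which also enters the interaction. With Xist status as a covariate, the differences were -2.06 for Saa3, -0.68 for S100a9, -0.96 for Hp, -0.22 for Lcn2 and -0.89 for Lrg1. The sign of S100a8 and Ltf turned with it, to 0.55 and 1.01. Of all genes, 49.3% were negative here.

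Without irradiation, the means of all 7 genes were again lower in knockout, and 43.1% of all genes were negative. Lrg1 differed by -4.82 ± 0.95 (SE), a 28.3-fold lower signal in knockout, and was the only member to pass the test (adjusted p = 0.0459, limma), against 0.804% of genes called lower. That call rests on 2 arrays of each genotype, with an SD of 2.33 among the knockout arrays (n = 2), and it was lost in 8 of the 10 fits that left out 1 array each. S100a8 differed by -4.24 ± 1.02, Ltf by -3.08 ± 1.51, Saa3 by -1.53 ± 0.37 and Lcn2 by -1.53 ± 0.38 (all SE), none past the threshold (adjusted p between 0.0843 and 0.343, limma). Both knockout arrays lay below both wild-type arrays for these 4 genes and for Lrg1, thus for 5 of 7, against 18.9% of all genes. S100a9 and Hp, which were dim in both groups, differed by -0.66 ± 0.93 and -0.22 ± 1.02 (both SE), less than their errors. With 64 added to the linear signal, the genotype differences were -3.48 for Lrg1, -2.21 for S100a8, -1.76 for Ltf and -1.17 for Saa3. They were -0.73 for Lcn2, -0.12 for S100a9 and -0.03 for Hp.

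The difference between the 2 irradiation responses, knockout minus wild type, was called for none of the 7 genes by limma, and 2 of them had an unadjusted p under 0.05. Over all genes 0.207% were called. It was 4.24 ± 1.22 (SE) for Lrg1 (adjusted p = 0.286) and 3.91 ± 1.31 for S100a8 (adjusted p = 0.338), whose unirradiated knockout arrays were the low ones. It was positive for Ltf at 2.92 ± 1.95 and Lcn2 at 0.92 ± 0.49, and negative for Hp at -1.68 ± 1.31, S100a9 at -1.19 ± 1.20 and Saa3 at -0.64 ± 0.48 (all SE). By their means, the genotypes were farther apart without irradiation for the 4 positive genes and farther apart with it for the 3 negative ones, with none of the 7 called. With 64 added to the linear signal, this difference between responses was 2.95 for Lrg1, 1.89 for S100a8, 1.57 for Ltf and 0.16 for Lcn2. It was -1.69 for Hp, -1.68 for S100a9 and -0.86 for Saa3.

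Across the 10 arrays the 7 profiles were not alike to one degree. As a description, the root-mean-square difference between centred log2 profiles was smallest for Saa3 and Lcn2 at 1.15, then for S100a8 and Ltf at 1.36 and S100a9 and Hp at 1.45. The calprotectin partners S100a8 and S100a9 differed by 1.77, and the largest value was that of S100a9 and Lrg1 at 3.91. By the same measure over 10 arrays, the genes nearest to Saa3 were Osmr at 0.66, Crlf2 at 0.66 and Mndal at 0.68, against a median over all genes of 1.52. Those nearest to Lcn2 were Ccl8 at 0.39, Fcgr3 at 0.49 and Cpa3 at 0.51 (median 2.09), a chemokine, an Fc receptor and a mast cell protease. Lrg1 was nearest to Il18bp at 0.57, Slfn5 at 0.94 and Nlrc5 at 0.97 (median 2.06).

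S100a9 was nearest to Tmprss11a at 0.99, Ifi202b at 1.21 and Krt6a at 1.22 (median 4.45), and Hp to Col17a1 at 0.96, Krt6a at 1.00 and Dsc3 at 1.06 (median 3.84). Krt6a, Col17a1 and Dsc3 are genes of stratified epithelium. Ltf was nearest to Psca at 0.87, Prss27 at 0.93 and Prss22 at 1.15 (median 3.30). S100a8 was nearest to the immunoglobulin kappa genes Igkv4-68 at 0.97 and Igk-V21 at 1.05, and to the keratinocyte gene Ly6d at 1.22 (median 3.59).

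Of the cytokines, receptors and factors upstream of these genes, 20 were tested, and 7 were called higher and 1 lower with irradiation in knockout, against 8 higher and 2 lower in wild type. Over all genes, 14.0% were called higher and 9.50% lower in knockout, and 15.8% and 8.34% in wild type. These shares are the ones to set beside the irradiation counts of every list. The interleukin 1 genes rose in both genotypes: Il1b by 3.64 ± 0.61 in knockout and 3.96 ± 0.61 in wild type, and Il1a by 2.92 ± 0.73 in knockout and 4.10 ± 0.73 in wild type (SE). Osmr, the oncostatin M receptor, rose by 2.53 ± 0.18 in knockout and 1.61 ± 0.18 in wild type, and Il6st, the signalling subunit shared by interleukin 6 family receptors, by 0.80 in knockout and 1.13 in wild type. Il6 had 5.75, 5.78 and 5.43 in irradiated knockout and 7.43, 5.71 and 7.94 in irradiated wild type, against 1.29 and 2.43 in unirradiated knockout and 3.52 and 0.42 in unirradiated wild type. Its difference passed in wild type (5.05 ± 1.32, SE) and not in knockout (3.79 ± 1.32, SE), and Il6 lay below the array median on every knockout array. Tnf and Cebpb were called higher in knockout, by 2.88 and 1.32, and had differences of 0.30 and 0.50 in wild type that were not called. None of these genes was called for the interaction, so the genotypes' responses were not shown to differ. With 64 added to the linear signal, which damps dim values, the Il6 difference in wild type was 1.54, that of Il1a was 1.09 in knockout and 1.84 in wild type, and that of Tnf in knockout was 1.49. Without replicate 2 of unirradiated knockout, 4 upstream genes were called in knockout in place of 8. Over the 10 fits that each left out 1 array, Il1a in knockout and Il6 in wild type were called in 7, Cebpb in knockout in 8 and Il6st in knockout in 9.

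Socs3, a STAT3-induced inhibitor of cytokine receptor signalling, was lowest in unirradiated knockout. The means of all 7 genes were lowest there too, although the unirradiated genotypes overlapped for S100a9 and Hp. Several gene lists given below also had their lowest mean in that group, so the pattern was not particular to Socs3. Socs3 had 10.87, 11.22 and 10.54 in irradiated knockout, 10.78, 10.95 and 11.34 in irradiated wild type, 7.68 and 6.84 in unirradiated knockout and 9.45 and 11.03 in unirradiated wild type. In unirradiated tissue its knockout minus wild-type difference was -2.98 ± 0.47 (SE, adjusted p = 0.0182, limma). Osmr had 7.58 and 7.78 in unirradiated knockout against 9.15 and 9.40 in unirradiated wild type, a difference of -1.60 ± 0.20 (SE, adjusted p = 0.00665, limma). They were the 2 of 20 upstream genes called in that comparison, where 0.804% of all genes were called lower. The Osmr call was lost when the probe sets of a gene were averaged (-0.93, adjusted p = 0.132), and without replicate 1 of unirradiated knockout (adjusted p = 0.0611). The Socs3 call was lost with the replicate number as a block (adjusted p = 0.0621), and it was lost without replicate 2 of unirradiated wild type (-2.19, adjusted p = 0.0578) and without replicate 1 (-3.40, adjusted p = 0.0557) or 2 (-2.56, adjusted p = 0.12) of unirradiated knockout. Each of these 3 arrays, left out, took the count of upstream genes called to 1.

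The list of other acute-phase proteins had 28 genes, of which 24 were on the array and 11 were tested. Of these, 6 were called higher with irradiation in knockout and 4 in wild type, and 0 lower. Orm1, an orosomucoid, rose by 5.62 ± 1.22 in knockout and 6.09 ± 1.22 in wild type, Serpina3n, a protease inhibitor, by 5.17 ± 0.59 in knockout and 3.76 ± 0.59 in wild type, and Cp, the ferroxidase ceruloplasmin, by 3.72 ± 0.25 in knockout and 3.07 ± 0.25 in wild type (SE). Orm1 lay below the array median on all 4 unirradiated arrays, and with 64 added to the linear signal its differences were 2.50 in knockout and 2.62 in wild type. Its call was lost without replicate 2 of unirradiated knockout in knockout (3.58, adjusted p = 0.0843) and without replicate 1 of unirradiated wild type in wild type (4.93, adjusted p = 0.0721). Reg3g, an antibacterial lectin of gut epithelium, had 8.39, 9.82 and 8.98 in irradiated knockout, 7.97, 7.31 and 11.28 in irradiated wild type, 1.93 and 2.40 in unirradiated knockout and 10.20 and 7.37 in unirradiated wild type. Its knockout minus wild-type difference without irradiation was -6.62 ± 1.23 (SE, adjusted p = 0.0383, limma), a call that held in 6 of 12 alternatives and in 4 of the 10 fits that left out 1 array. It was lost with 64 added to the linear signal (-2.96, adjusted p = 0.227), and without any 1 of the 4 unirradiated arrays or replicate 1 or 3 of irradiated knockout (-8.04 to -5.20, adjusted p up to 0.24). Saa1 and Saa2 were looked up after the Saa3 values were seen, and their sequences are so alike that their probe sets may share signal. Saa1 had 14.03, 15.23 and 13.77 in irradiated knockout, 14.44, 14.41 and 14.83 in irradiated wild type, 14.55 and 14.95 in unirradiated knockout and 15.39 and 14.80 in unirradiated wild type. The highest signal of any probe set was 15.79. Neither gene was called with irradiation: Saa1 differed by -0.41 ± 0.38 in knockout and -0.54 ± 0.38 in wild type, and Saa2 by -0.31 ± 0.41 in knockout and -0.77 ± 0.41 in wild type (SE). With replicate 2 of irradiated knockout left out, Saa1 was called lower in knockout (-0.85) and Saa2 in both genotypes (-0.80 in knockout and -0.77 in wild type).

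**Figure D3:**
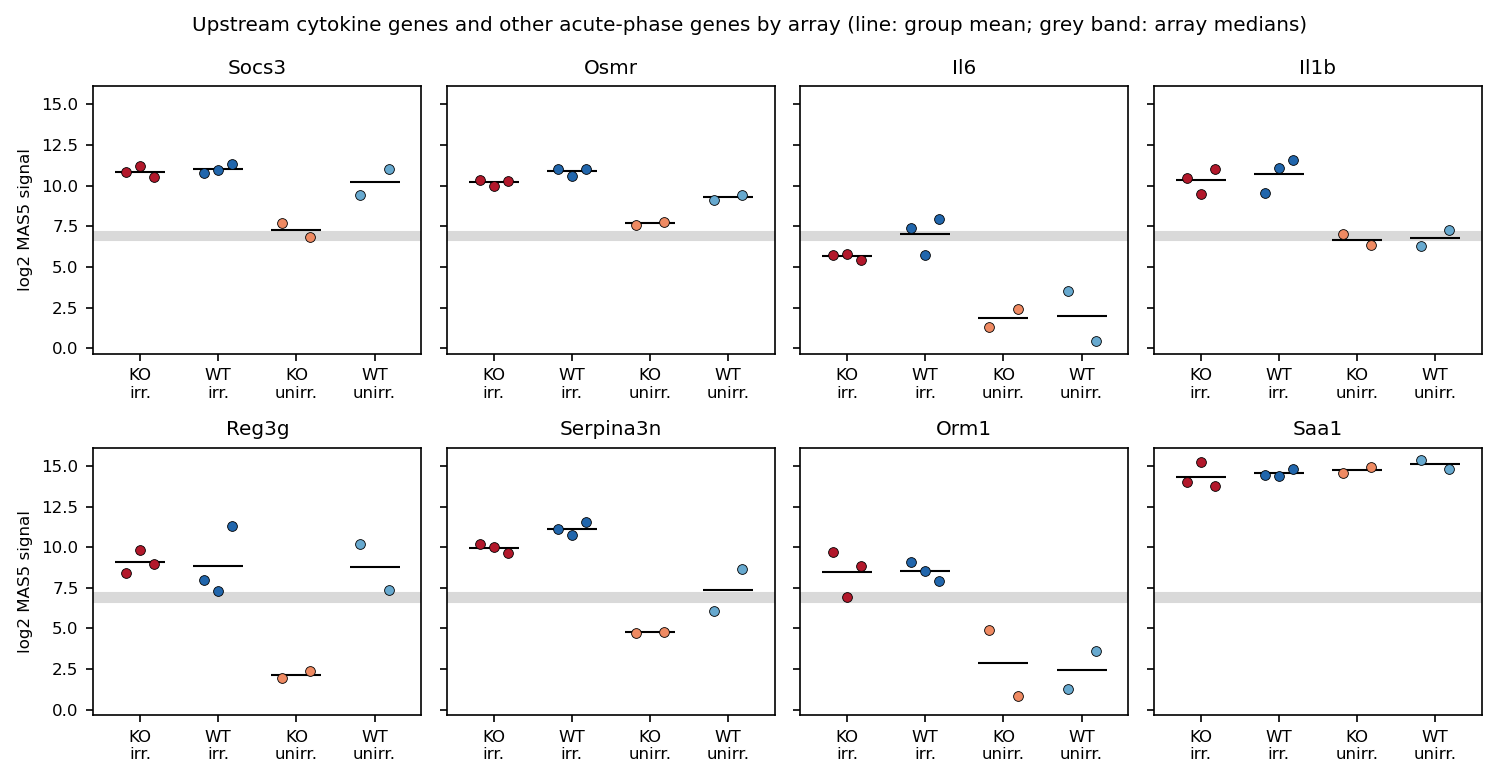
Log2 MAS5 signal (vertical axis) of 4 upstream genes (Socs3, Osmr, Il6, Il1b) and 4 other acute-phase genes (Reg3g, Serpina3n, Orm1, Saa1) on each array, in irradiated knockout, irradiated wild type, unirradiated knockout and unirradiated wild type. Points are arrays, lines are group means and the grey band spans the array medians. Reg3g lay at 1.93 and 2.40 in unirradiated knockout and above 7 on the other arrays, and Saa1 lay between 13.77 and 15.39 on all 10.

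Among 16 receptors and partners of the proteins that were tested, 7 were called higher with irradiation in knockout and 7 in wild type, and 0 lower. Cd163, the macrophage receptor for haptoglobin-haemoglobin complexes, rose by 4.23 ± 0.50 in knockout and 2.12 ± 0.50 in wild type. Its unirradiated arrays lay below the array median, and with 64 added to the linear signal the differences were 1.68 in knockout and 1.36 in wild type. Fpr2, a formyl peptide receptor that binds serum amyloid A, rose by 2.49 ± 0.49 in knockout and 2.21 ± 0.49 in wild type, and Tlr2 by 1.32 ± 0.34 in knockout and 1.21 ± 0.34 in wild type. Eng, the endothelial TGF-beta co-receptor that LRG1 binds, rose by 1.04 ± 0.22 in knockout and 1.28 ± 0.22 in wild type. Cd36, Cd69 and Tgfbr2 were the other genes called in both genotypes. Tlr4 was not called, at 0.33 ± 0.36 in knockout and -0.19 ± 0.36 in wild type, nor were the lipocalin 2 receptor gene Slc22a17 and the lactoferrin receptor gene Lrp1 (errors are SE). The knockout count was 4 without replicate 1 and 2 without replicate 2 of unirradiated knockout, and the wild-type count was 4 without replicate 2 of irradiated wild type. Over the 10 fits that left out 1 array, Cd163 was called in 10 in knockout and 6 in wild type, Tlr2 in 6 in knockout and 7 in wild type, Cd69 in 8 in knockout and 4 in wild type, and Eng in 8 in knockout and 10 in wild type.

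Other S100 and alarmin genes were called higher for 3 of 16 in knockout and 4 of 16 in wild type, against 14.0% and 15.8% of all genes. The median difference of that list was 0.60 in knockout and 0.25 in wild type. S100a4 rose by 2.35 ± 0.51 in knockout and 2.47 ± 0.51 in wild type, and the annexin gene Anxa1 by 1.13 ± 0.23 in knockout and 0.79 ± 0.23 in wild type (SE). Over the 10 fits that left out 1 array, S100a4 was called in 8 in knockout and 9 in wild type, and Anxa1 in 9 in knockout and 5 in wild type. Il33, a nuclear alarmin, was called in wild type at 6.86 ± 1.14 (SE) and not in knockout at 1.62 ± 1.14 (SE), and its interaction was not called. Without 1 array, the count in knockout was 0 (replicate 1 of unirradiated knockout), 1 (replicate 2 of unirradiated knockout) or 5 (replicate 2 of irradiated knockout). In wild type it was 1 (without replicate 1 of unirradiated wild type) or 2 (without replicate 3 of irradiated knockout or of irradiated wild type). Of 10 haemoglobin and iron-handling genes, 2 were called higher in knockout and 4 in wild type, among them in both the phagosomal metal transporter Slc11a1, by 2.32 ± 0.28 in knockout and 2.61 ± 0.28 in wild type (SE). Without replicate 2 of irradiated knockout, 4 were called in knockout. In the genotype comparison without irradiation, 1 of the 16 other S100 and alarmin genes was called, against 0.804% of all genes called lower. It was S100a14, with a mean of 11.71 in knockout and 12.97 in wild type. That call held in 11 of 12 alternatives and in 7 of the 10 fits that left out 1 array.

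Neutrophil markers did not move in one direction with irradiation. The list without S100a8 and S100a9 had 9 genes on the array, of which 4 passed the filter on dim signals. Mpo, Elane, Camp and Cxcr2 lay below the array median on all 10 arrays. The summed linear signal of the 9 genes was 1690 to 2328 in irradiated knockout, 3542 to 4700 in irradiated wild type, 2910 to 3811 in unirradiated knockout and 5812 to 6717 in unirradiated wild type. Cd177 alone made up 50.7% to 70.6% of this sum in irradiated knockout and 51.4% to 79.5% in irradiated wild type, against 86.1% to 92.8% in unirradiated knockout and 95.4% to 95.7% in unirradiated wild type. The other 8 genes summed to 586 to 883 in irradiated knockout and 726 to 2286 in irradiated wild type, against 274 to 403 in unirradiated knockout and 252 to 307 in unirradiated wild type, so the sum without Cd177 was higher on all 6 irradiated arrays. The mean of the log2 signals of all 9 was higher with irradiation, at 6.27 to 6.63 in irradiated knockout and 6.48 to 7.47 in irradiated wild type, against 5.18 to 5.75 in unirradiated knockout and 5.34 to 5.88 in unirradiated wild type. Stfa2l1 was called higher with irradiation in both genotypes, by 5.80 ± 1.33 in knockout and 6.38 ± 1.33 in wild type, and Cd177 fell by 1.33 in knockout and 1.23 in wild type. Csf3r differed by 1.27 ± 0.45 in knockout, which was not called, and by 2.43 ± 0.45 in wild type, which was. Stfa2l1 lay below the array median on all 4 unirradiated arrays, and with 64 added to the linear signal its difference was 2.17 in knockout, which was not called, and 2.81 in wild type. No neutrophil marker was called in knockout without replicate 2 of unirradiated knockout, and without replicate 1 of unirradiated wild type Stfa2l1 was not called in wild type (adjusted p = 0.0811). Of 17 genes of neutrophil granules and oxidase, 10 were tested, with 6 called higher in each genotype and 1 lower in wild type. Among those called in both genotypes were Chil3, by 5.04 ± 1.32 in knockout and 5.45 ± 1.32 in wild type, Olfm4, by 3.35 ± 0.89 in knockout and 3.63 ± 0.89 in wild type, and Lyz2, by 3.41 ± 0.36 in knockout and 3.26 ± 0.36 in wild type (SE), all of which macrophages or epithelium can also express. Chil3 and Olfm4 lay below the array median on all 4 unirradiated arrays. With 64 added to the linear signal, Chil3 differed by 1.39 in knockout and 1.87 in wild type, Olfm4 by 1.08 in knockout and 1.94 in wild type, and Lyz2 by 3.33 in knockout and 3.20 in wild type. Over the fits that left out 1 array, Chil3 was called in 6 of 10 in knockout and 8 in wild type, Olfm4 in 7 in each and Lyz2 in 10 in each. The granule count was 3 in knockout without replicate 3 of irradiated knockout, and 4 in wild type without replicate 1 of unirradiated wild type.

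Of 11 macrophage markers, 10 were called higher with irradiation in each genotype. Their mean log2 signal was 10.40 to 10.95 in irradiated knockout, 11.19 to 11.33 in irradiated wild type, 7.26 to 7.94 in unirradiated knockout and 8.56 to 8.69 in unirradiated wild type. The 4 groups fell in the same order by the means of 6 of the 7 genes, all but Lrg1. That order was not particular to macrophage markers. The lists of neutrophil markers, granule proteins, receptors, upstream genes and other acute-phase proteins had it by their group means too. So did the lists of other S100 and alarmin genes and of haemoglobin and iron-handling genes, whose unirradiated genotypes overlapped. The squamous list did not. Squamous epithelial markers, found in the skin-like lining at the anus, were called higher for 13 of 13 genes in knockout and 8 of 13 in wild type. Their mean was 12.16, 10.60 and 11.52 in irradiated knockout and 11.70, 11.51 and 9.33 in irradiated wild type, against 5.28 and 5.13 in unirradiated knockout and 5.32 and 6.26 in unirradiated wild type. Krt14, a basal keratin, rose by 6.67 ± 0.80 in knockout and 8.86 ± 0.80 in wild type (SE).

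Adipocyte markers were called higher for 4 of 6 genes in each genotype, and endothelial markers for 7 of 8. Colonocyte markers were called lower for 5 of 10 in knockout and 6 of 10 in wild type, with a list mean of 11.5 to 12.7 in irradiated knockout and 11.5 to 12.0 in irradiated wild type, against 13.2 to 13.6 in unirradiated knockout and 13.5 to 13.7 in unirradiated wild type. Hepatocyte markers had at most 2 of 6 genes above the array median on any array. Of the 7 goblet cell genes, 1 was called lower in knockout and 0 in wild type. The goblet count in knockout was 0 without replicate 1 or 2 of unirradiated knockout or replicate 1 or 3 of irradiated knockout, and 4 without replicate 2 of irradiated knockout. Without replicate 2 of unirradiated knockout, the knockout counts were 1 for adipocyte, 2 for endothelial and 2 for colonocyte markers, and without replicate 1 of it the colonocyte count was 3. The adipocyte count in knockout was 2 without replicate 1 or 3 of irradiated knockout. The part of these cell types in the differences of the 7 genes was not tested. In the genotype comparison after irradiation, 0 genes of any list were called, and without irradiation the cell-type calls were Sprr1a and Sfn, both squamous and lower in knockout, and Ttr, a hepatocyte-list gene and higher in knockout, where 0.422% of all genes were called higher. Sprr1a and Sfn were 2 of the 13 squamous genes tested, and that list had a median difference of -0.24, against 0.07 over all genes. Krt14, Trp63 and Krtdap went the other way, with higher means in unirradiated knockout than in unirradiated wild type. Sprr1a was called in 4 of 10 and Sfn in 8 of 10 fits that left out 1 array. Without replicate 1 or 2 of unirradiated knockout, or with the replicate block, 0 squamous genes were called. Ttr was not called without replicate 2 of unirradiated knockout (1.24, adjusted p = 0.0548).

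**Figure D4:**
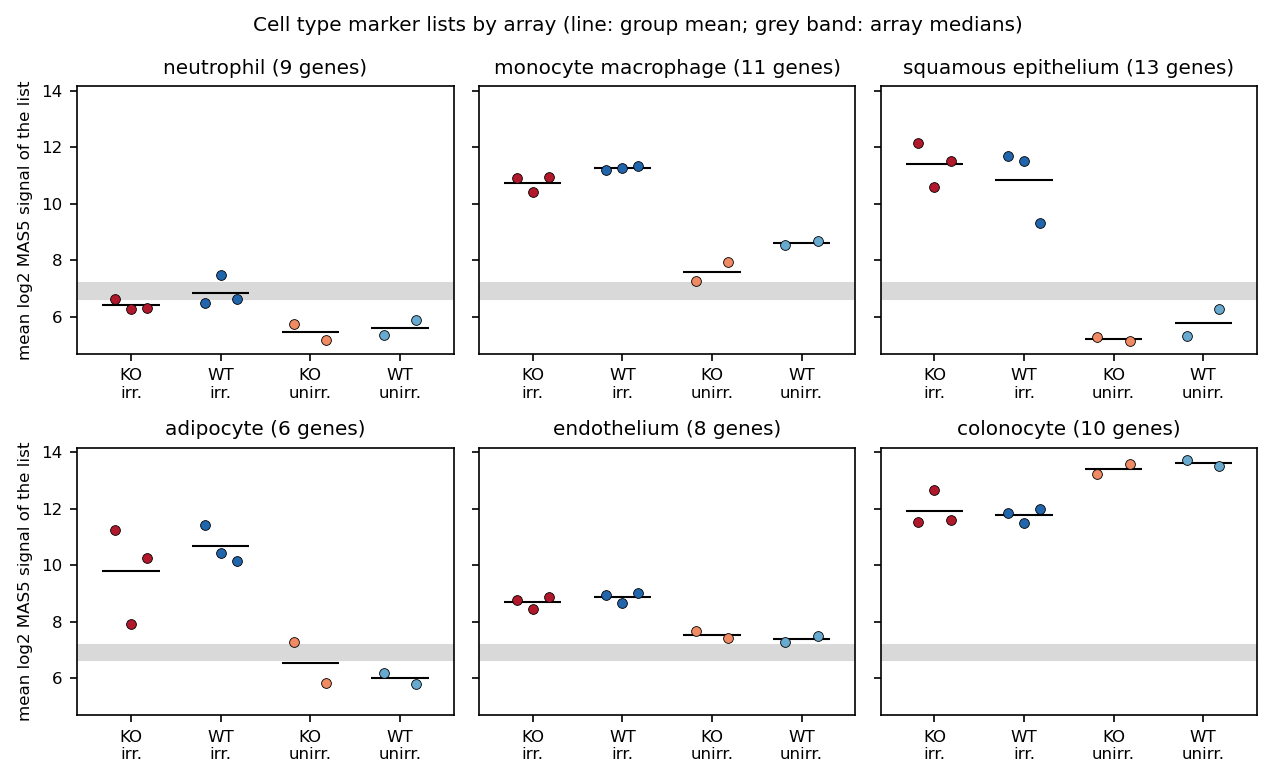
Mean log2 MAS5 signal (vertical axis) of 6 lists of cell type markers on each array, in irradiated knockout, irradiated wild type, unirradiated knockout and unirradiated wild type. Points are arrays, lines are group means and the grey band spans the array medians. The macrophage, squamous, neutrophil, adipocyte and endothelial lists lay higher on all 6 irradiated arrays (neutrophil 6.27 to 7.47, against 5.18 to 5.88 on the unirradiated ones). The colonocyte list lay lower on them.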

How the data were processed

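Total RNA of distal colorectum was measured on 10 arrays, 1 per sample, and samples were grouped by the genotype and treatment in their labels. The deposited values are log2 signals that the authors computed with MAS5, per the submitters' processing notes, and no version is given in the sources used here. Raised from the log2 scale, every array had a trimmed mean of 500.0, and values ran from -4.24 to 15.79. Detection calls and raw scans were not used here.

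Of 45101 probe sets, 34945 had 1 gene in the platform annotation, and symbols were updated by gene ID for 34741 from RefSeq (GRCm38.p6), whose promoter table gave the sequences. The probe set with the highest mean stood for each of 18193 genes. Testing was limited to the 12568 genes whose signal exceeded the array median on 2 or more arrays. No further normalization or pseudocount was used.

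A mean was fitted for each of the 4 groups to the 10 arrays together, leaving 6 residual degrees of freedom, by limma 3.58.1 (R 4.3.3) with a variance trend, and p-values were adjusted by Benjamini-Hochberg at 0.05. Differences are irradiated minus unirradiated and knockout minus wild type. This model was first tested on simulated data. The p-values measure the spread between these arrays, whose number limits the precision. The 4 comparisons of groups share arrays with each other.

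The 7 genes and all gene lists were chosen with earlier results of these data known. Named genes were the 7 members, any receptor or upstream gene, up to 4 called genes per other list and comparison with the largest differences (or the 2 with the smallest p where none was called), and the 3 genes nearest to each member by profile. Saa1, Saa2 and the uncalled or dim genes named beside a count were picked after their values were seen. Alternatives were quantile normalization, pseudocounts of 16 and 64, testing all genes, filtering on the mean signal, dropping the variance trend, array weights, other ways to join probe sets, only the groups compared, the replicate number as a block, Xist status as a covariate, and leaving out each array.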

Additional observations from a re-analysis of the deposited data

Results flagged for a closer look

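Ttr, the transthyretin gene of the hepatocyte list, was singled out because the test of the difference between the irradiation responses called it. The knockout minus wild-type difference of the responses was -1.55 ± 0.20 (SE, adjusted p = 0.0172, limma). Ttr fell by 1.35 with irradiation in knockout, and it differed by 0.20 in wild type, which was not called. The interaction was not called without a variance trend, with the replicate block or with Xist status as a covariate. Of the 10 fits that left out 1 array it was called in 6, and it was lost without replicate 1 of unirradiated wild type, replicate 1 or 2 of unirradiated knockout or replicate 1 of irradiated knockout (-1.57 to -1.43, adjusted p 0.0565 to 0.0938, limma). No such difference was called for the 7 genes. Groups of 2 or 3 arrays were too small for the test of an outlying array.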

How the results depend on the processing

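The number of the 7 genes called stayed within 1.5 times that reported for knockout irradiation and for the interaction under every alternative run. In wild type it was 5 in the main fit, and 0 with Xist status as a covariate. Ltf was called there as well with pseudocounts of 16 and 64 (adjusted p = 0.0459 and 0.0466, limma). For genotype after irradiation the number was 0, and 0 to 1 when 1 array was left out (1 without replicate 1 of irradiated wild type, Saa3). For genotype without irradiation it was 1, but 0 with no trend, with array weights and with Xist status as a covariate, 2 with only the groups compared, and 0 to 1 when 1 array was left out. With the covariate, each gene list also had at most 1 called gene in wild type. Only the groups compared could not be fitted for the interaction, and the filter on the mean removed Hp.

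Directions turned in these cases. Lrg1 in wild-type irradiation was 0.20 with the Xist covariate and -0.63 to 0.10 over the fits that left out an array. S100a8 after irradiation (genotype) was 0.55 with the covariate and -0.77 to 0.21 over those fits, and Ltf was 1.01 and -1.79 to 0.88. Without irradiation (genotype), S100a9 ranged from -1.70 to 0.38 and Hp from -0.94 to 0.49. Saa2 was 0.19 in wild type and 0.0067 in knockout with the covariate (-0.80 to 0.0067 over the left-out arrays). The causes were not tested.

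Without replicate 2 of unirradiated wild type, S100a8 in wild type was 3.41 (adjusted p = 0.0632, limma). Without replicate 2 of unirradiated knockout, Lrg1 in knockout was 2.33 (adjusted p = 0.074) and Ltf 5.90 (adjusted p = 0.0665). Over left-out arrays, Lrg1 without irradiation (genotype) ranged from -6.47 to -3.17 (adjusted p 0.0132 to 0.139).

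Correlations did not show a pairing by replicate number, at -0.20 to 0.16 for same-numbered arrays and -0.25 to 0.24 for others. In the groups of 2, both arrays had equal and opposite correlations with each array of another group, so these values cannot exclude pairing. With the replicate block, 7 and 5 of the 7 genes were called with irradiation in knockout and wild type, 0 for genotype after irradiation, 1 without it (Lcn2 in place of Lrg1) and 0 for the interaction.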
